A study of Homo sapiens with 18 samples.

Results

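The genes ALDH8A1, ERMN, SLC15A2, ERV3-1, LHFPL2 and PGM5 were selected on large increases of their transcripts when RBM39 was knocked down, or when cells were given indisulam, in the myeloma cell line MM1S. They are 6 of the 59421 gene names in the deposited tables, and all 6 were found by symbol. The MM1S values chose them, so their MM1S values below are a description without a test, and the values from the second myeloma line, H929, are the ones the choice did not use. The RNA sequencing libraries carried an RBM39 short hairpin (shRBM39) or a scramble hairpin in H929 (3 libraries each), an shRBM39 or a scramble hairpin in MM1S (2 each), or came from MM1S treated with indisulam or with its solvent DMSO (3 each). A further pair of libraries came from RNA immunoprecipitation (RIP) in MM1S with an RBM39 antibody or control IgG, 1 library each. The labels give no dose, time or hairpin sequence. They do not say whether the numbers of the MM1S shRBM39 libraries stand for replicates or for different hairpins. These numbers are called replicates below. Indisulam was read from the letters In of the sample titles and from the design of the series. Both lines are established plasma cell lines, each derived from a single patient. Nothing in the labels says whether libraries of a group came from separate cultures, so p-values measure the spread between these libraries, which may be technical.

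RBM39 is a nuclear RNA-binding protein and helps the splicing machinery choose splice sites. Indisulam is a molecular glue: it places RBM39 on the DCAF15 ubiquitin ligase, and the RBM39 protein is then degraded, while a hairpin acts on the RBM39 transcript. The 6 genes are not known as plasma cell genes. ALDH8A1 encodes an aldehyde dehydrogenase of the kynurenine route of tryptophan breakdown, found mainly in liver and kidney, and ERMN encodes ermin, a cytoskeletal protein of myelin-forming oligodendrocytes. SLC15A2 encodes PEPT2, a proton-coupled transporter of short peptides in kidney and brain. ERV3-1 holds the envelope reading frame of an endogenous retrovirus, LHFPL2 encodes a membrane protein with several membrane-spanning segments, and PGM5 encodes aciculin, a relative of phosphoglucomutase without its enzyme activity that sits at muscle cell junctions.

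The promoter windows of 4 of the genes, ALDH8A1, ERMN, SLC15A2 and LHFPL2, are shown. That of LHFPL2 was unlike the others in GC content, as given below. All 4 genes lay above their controls with the hairpin and with the drug, although LHFPL2 had its large increase with the hairpin. So did ERV3-1, whose window is not shown, lie above its controls in both. A link between the windows and the MM1S values was not tested. RefSeq windows on GRCh38.p14, from 250 bases before to 50 bases after the annotated start, were matched for 5 of the 6 genes; that of ERV3-1 was not used here. Each is written 5′ to 3′ on the gene's strand, and capitals mark matches to the motifs named below.
ALDH8A1, chr6:134950052-134950351, minus strand: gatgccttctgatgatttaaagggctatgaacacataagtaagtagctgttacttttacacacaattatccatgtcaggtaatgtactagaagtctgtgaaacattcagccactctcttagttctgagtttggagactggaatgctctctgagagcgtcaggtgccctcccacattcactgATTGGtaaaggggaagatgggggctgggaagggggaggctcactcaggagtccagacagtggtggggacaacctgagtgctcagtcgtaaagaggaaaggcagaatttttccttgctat
ERMN, chr2:157327260-157327559, minus strand: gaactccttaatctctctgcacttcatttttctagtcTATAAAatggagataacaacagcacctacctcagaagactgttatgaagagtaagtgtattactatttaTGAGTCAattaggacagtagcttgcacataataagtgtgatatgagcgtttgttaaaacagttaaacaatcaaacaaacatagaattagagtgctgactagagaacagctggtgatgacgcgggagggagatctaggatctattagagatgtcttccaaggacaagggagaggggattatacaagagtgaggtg
SLC15A2, chr3:121894151-121894450, plus strand: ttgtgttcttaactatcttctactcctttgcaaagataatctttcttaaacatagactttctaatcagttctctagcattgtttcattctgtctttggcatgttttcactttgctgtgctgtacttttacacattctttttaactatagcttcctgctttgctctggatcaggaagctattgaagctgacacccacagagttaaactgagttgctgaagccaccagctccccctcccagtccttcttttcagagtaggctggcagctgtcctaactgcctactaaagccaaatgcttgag
LHFPL2, chr5:78648723-78649022, minus strand: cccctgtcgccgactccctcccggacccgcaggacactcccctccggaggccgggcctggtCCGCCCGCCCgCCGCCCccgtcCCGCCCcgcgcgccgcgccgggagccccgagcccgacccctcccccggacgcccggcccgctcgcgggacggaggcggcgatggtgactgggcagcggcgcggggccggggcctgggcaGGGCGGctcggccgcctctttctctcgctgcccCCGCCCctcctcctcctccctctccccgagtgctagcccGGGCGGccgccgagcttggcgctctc

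The LHFPL2 window was 82% G or C, with 44 CpG dinucleotides, and had a higher GC content than 98.7% of the 35116 promoter windows of the table. The windows of ALDH8A1, SLC15A2 and ERMN lay below the median GC content of all promoters (58.7%): 46.7% for ALDH8A1, 41.3% for SLC15A2, and 50%, 38.7% and 42% for the 3 annotated starts of ERMN, of which the one shown is the middle one. SLC15A2 had 0 CpG dinucleotides and ALDH8A1 had 2, against a median of 14 over all promoters. Both strands were searched for TATAAA (the TATA box), CCAAT (the CCAAT box), GGGCGG (the GC box), CACGTG (the E-box), TGACTCA (the AP-1 motif), TGACGT (the core of the CRE motif) and CTTCCG (an ETS motif). The LHFPL2 window held 7 matches to GGGCGG, some of them overlapping, a motif found in 45% of all promoters. The ALDH8A1 window held CCAAT on the opposite strand, 69 bases before the start, a motif found in 34.6% of promoters. The ERMN window shown held TATAAA 213 bases before its start and TGACTCA on the opposite strand 144 bases before it. These motifs were found in 11.5% and 4.95% of promoters. The third ERMN window held CCAAT, and the first held none of the motifs. The SLC15A2 window held none of these letters. A match is a description of the letters and shows no binding.

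RBM39 itself was measured first, as a check of the labels. In MM1S, the RBM39 transcript was at 64.8 and 52.2 TPM (a length-corrected share of all transcripts) in the shRBM39 libraries, against 176 and 205 TPM in the scramble libraries. The 2 groups did not overlap, and the difference was -1.69 on the log2(TPM + 1) scale (SE 0.161, limma adjusted p = 0.0121); it no longer passed without scramble replicate 1, without scramble replicate 2 or without shRBM39 replicate 2 (adjusted p = 0.222, 0.219 and 0.0683). With indisulam the RBM39 transcript was at 227, 217 and 149 TPM, against 189, 178 and 196 TPM with DMSO, and the groups overlapped (log2 difference 0.053, SE 0.16, limma adjusted p = 0.828), although it was called higher without indisulam replicate 3 (log2 difference 0.24, limma adjusted p = 0.00899). In H929 it went against the labels: 38.3, 38.6 and 35.6 FPKM (fragments per kilobase of transcript, scaled to library size) in the libraries labelled shRBM39, against 4.56, 4.43 and 4.51 FPKM in the libraries labelled scramble. That log2 difference of 2.81 (SE 0.055, limma adjusted p = 7.68e-13) ranked first of 10360 genes tested in H929. The H929 groups are given as labelled throughout. One MM1S library also stood apart: over all genes tested, indisulam replicate 3 differed from replicates 1 and 2 with an SD of 0.578 and 0.539 on the log2 scale, against 0.322 between replicates 1 and 2 and 0.306 to 0.321 among DMSO libraries. All 7 plasma cell marker genes checked (SDC1, TNFRSF17, IRF4, PRDM1, XBP1, MZB1 and JCHAIN) were at 1 or more in every library of both lines. In MM1S their sum was 7273 to 8439 TPM with shRBM39 and 4432 to 6690 TPM with scramble. It was 5666 to 6771 TPM with indisulam and 7221 to 7570 TPM with DMSO. In H929 it was 7744 to 7872 FPKM in libraries labelled shRBM39 and 4790 to 4928 FPKM in those labelled scramble.

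ALDH8A1 was clearly present in both treated MM1S groups and nearly silent in their controls. It was at 11.8 and 9.62 TPM in shRBM39 libraries, against 0.59 and 0.44 TPM in scramble libraries, and at 18.0, 15.9 and 17.0 TPM with indisulam, against 0.02, 0.38 and 0.59 TPM with DMSO. Every treated library lay far above every control library. The means were 10.7 ± 1.51 and 0.515 ± 0.106 TPM with shRBM39 and scramble (SD, n = 2 each), a 20.7-fold ratio, and 16.9 ± 1.03 and 0.33 ± 0.288 TPM with indisulam and DMSO (SD, n = 3 each), a 51.3-fold ratio. These ratios rest on control levels below 1 TPM; on the log2(TPM + 1) scale the differences were 2.94 with shRBM39, 8th of 14152 genes from the highest, and 3.78 with indisulam, 2nd of 13445.

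ERMN was high by similar amounts in the knockdown and with the drug. It was at 15.8 and 15.6 TPM in shRBM39 libraries, against 2.66 and 1.78 TPM in scramble libraries, and at 17.1, 21.2 and 11.1 TPM with indisulam, against 1.6, 1.76 and 2.14 TPM with DMSO. No treated library reached down to a control library, and indisulam replicate 3 was the lowest of the treated ones. Its ratio of means was 7.07-fold with shRBM39 and 8.97-fold with indisulam, and 10.4-fold with indisulam when replicate 3 was left out. The log2 differences were 2.39 and 2.58.

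SLC15A2 was higher in both experiments but by unequal amounts. In the knockdown it was at 20.1 and 16.2 TPM in shRBM39 libraries, against 10.9 and 7.87 TPM in scramble libraries. With indisulam it was at 30.2, 28.0 and 11.6 TPM, against 3.99, 3.1 and 2.45 TPM with DMSO. The groups did not overlap in either experiment, and indisulam replicate 3 was again the lowest treated library. The ratio of means was 1.94-fold with shRBM39 (log2 difference 0.89, 797th of 14152 genes) and 7.31-fold with indisulam (log2 difference 2.44, 11th of 13445), or 9.14-fold without indisulam replicate 3. Scramble libraries averaged 9.37 ± 2.11 TPM (SD, n = 2) and DMSO libraries 3.18 ± 0.773 TPM (SD, n = 3); these levels come from tables that were normalized separately.

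ERV3-1 was the most abundant of the 6 genes with indisulam and one of the least changed by the hairpin. It was at 56.8, 40.8 and 48.3 TPM with indisulam, against 8.03, 9.13 and 5.99 TPM with DMSO, a 6.3-fold ratio of means (log2 difference 2.51, 9th of 13445). In the knockdown it was at 5.8 and 10.6 TPM in shRBM39 libraries, against 4.81 and 5.49 TPM in scramble libraries. There the groups did not overlap, but the lower shRBM39 library lay just above the higher scramble library, and the ratio of means was 1.59-fold (log2 difference 0.53, 2111th of 14152).

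ERV3-1 overlaps the zinc finger gene ZNF117 and a readthrough transcript of the pair, so reads of one may have been counted for the other. ZNF117 was at 19.0, 15.8 and 5.06 TPM with indisulam, against 3.69, 3.29 and 4.04 TPM with DMSO. It rose with indisulam (log2 difference 1.44, limma adjusted p = 0.0422), a call that was lost in 5 of the 6 fits that left out 1 library, all but the one without indisulam replicate 3 (adjusted p up to 0.137). In the knockdown ZNF117 was at 4.85 and 8.19 TPM in shRBM39 libraries, against 6.02 and 5.91 TPM in scramble libraries, and the groups overlapped. ZNF117 stood at 33.5%, 38.7% and 10.5% of the ERV3-1 level with indisulam and at 46%, 36% and 67.4% with DMSO, so the pair did not keep 1 ratio. In the knockdown these shares were 83.6% and 77.6% in shRBM39 libraries, against 125% and 108% in scramble libraries.

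LHFPL2 had its large increase in the knockdown. It was at 22.4 and 26.8 TPM in shRBM39 libraries, against 5.29 and 3.25 TPM in scramble libraries, a 5.76-fold ratio of means (log2 difference 2.30, 18th of 14152). With indisulam it was at 1.2, 1.69 and 0.97 TPM, against 0.88, 0.61 and 0.72 TPM with DMSO. Those groups did not overlap either, but the gene stayed near 1 TPM in every library of that experiment, below the filter on low values, and the log2 difference was 0.39.

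PGM5 had its large increase in the knockdown, too. It was at 6.24 and 16.8 TPM in shRBM39 libraries, against 0.77 and 1.45 TPM in scramble libraries, a 10.4-fold ratio of means (log2 difference 2.45) with a wide spread between the 2 knockdown libraries. With indisulam it was at 2.36, 3.26 and 1.1 TPM, against 1.46, 3.27 and 2.2 TPM with DMSO, and the groups overlapped (log2 difference -0.054, and between -0.28 and 0.23 over the other settings tried). PGM5 has near-identical pseudogene copies, among which reads can be split in uncertain ways. The copy PGM5P4 was at 10.8 and 4.73 TPM in shRBM39 libraries, against 0.98 and 3.68 TPM in scramble libraries, in the order opposite to PGM5 itself in the shRBM39 libraries. Summed with PGM5P4 and PGM5P2, PGM5 came to 17.9 and 22.0 TPM in shRBM39 libraries, against 1.97 and 5.65 TPM in scramble libraries, so the knockdown libraries were closer to each other on the sum than on PGM5 alone. In the indisulam experiment PGM5P4 was listed at 0 in every library, and the sum was 4.16, 4.96 and 1.69 TPM with indisulam, against 1.69, 3.37 and 2.33 TPM with DMSO.

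**Figure D1:**
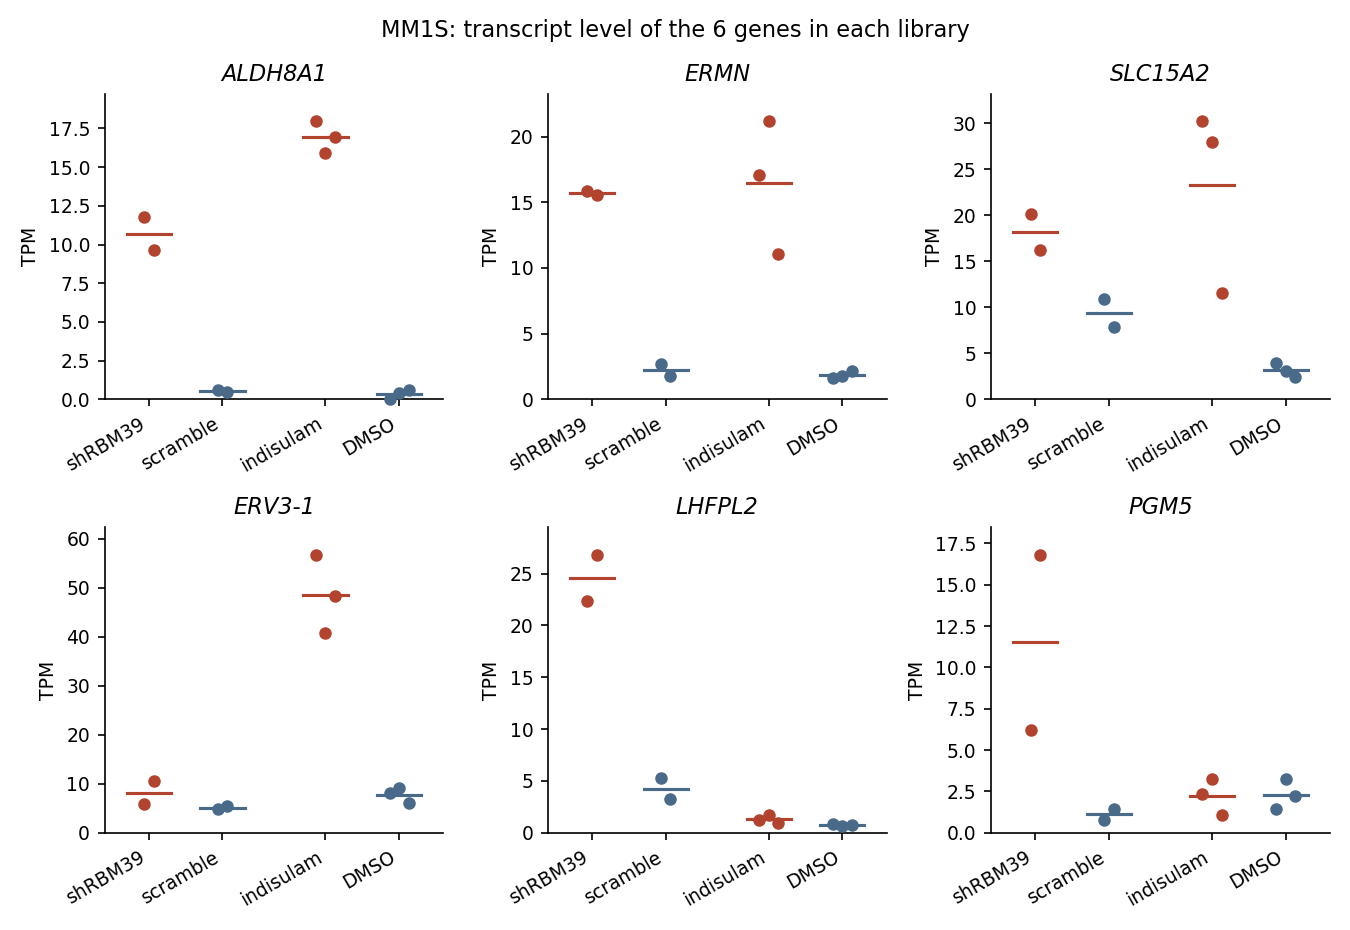
Transcript level (TPM, linear axis from 0) of each of the 6 genes in every MM1S library; each point is a library and each bar the group mean, with treated groups in red and their controls in blue. ALDH8A1, ERMN, SLC15A2 and ERV3-1 are above their controls in both experiments, whereas LHFPL2 and PGM5 stand out with shRBM39.

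**Figure D2:**
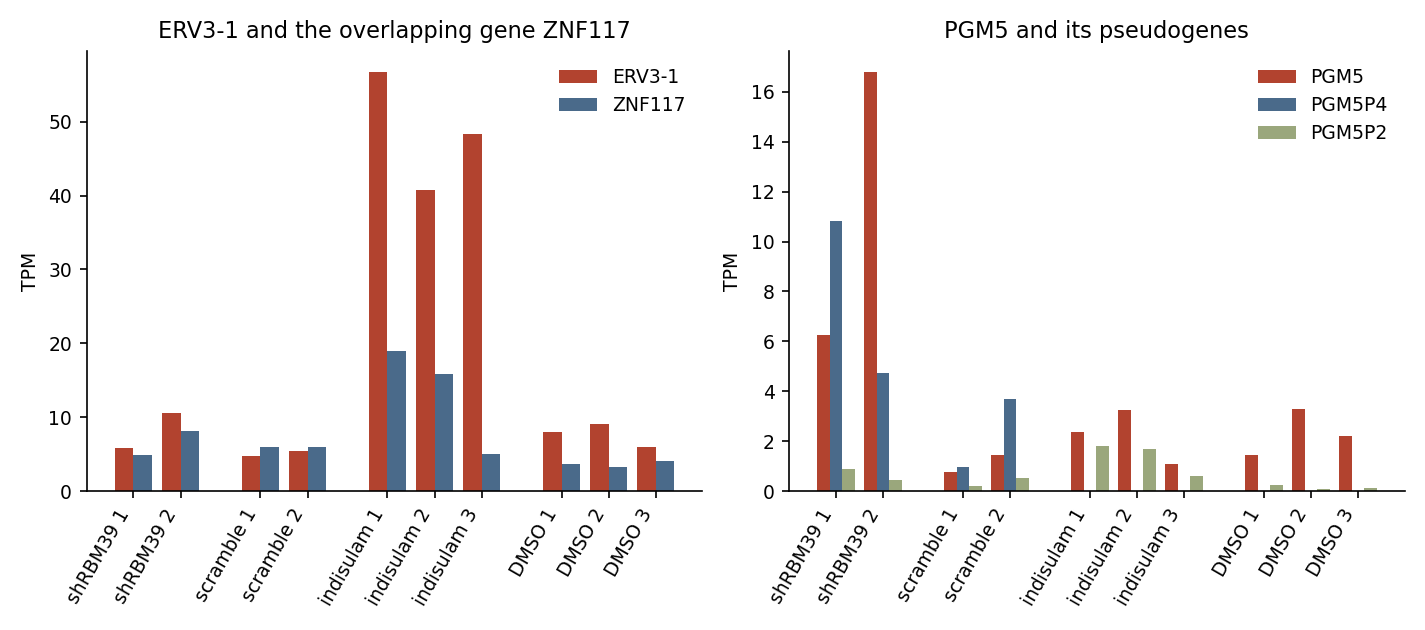
Levels (TPM) by MM1S library of ERV3-1 beside the overlapping gene ZNF117, and of PGM5 beside its pseudogenes PGM5P4 and PGM5P2; each bar is 1 library. ZNF117 stays at or below 19.0 TPM where ERV3-1 reaches 56.8 TPM, and PGM5P4 is at 0 in the indisulam and DMSO libraries.

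Knockdown and drug were then set side by side. In the knockdown 6 of 6 genes had every shRBM39 library above every scramble library, where 30.5% of all 14152 genes tested did so and 3.97% were called higher. With indisulam 4 of the 5 genes that passed the filter on low values had every treated library above every DMSO library, and LHFPL2, below the filter, did so too; among all 13445 genes tested 14.9% did so and 8.47% were called higher. Since these contrasts chose the genes, nothing is read from the counts. In both experiments ALDH8A1, ERMN, SLC15A2, ERV3-1 and LHFPL2 lay above their controls without overlap, and PGM5 was the exception. The sizes were close for ERMN (7.07-fold with shRBM39, 8.97-fold with indisulam), and larger with indisulam for ALDH8A1, SLC15A2 and ERV3-1. They were larger with shRBM39 for LHFPL2 (5.76-fold, against 1.75-fold with indisulam) and for PGM5. ERMN, SLC15A2, LHFPL2 and PGM5 were lowest in indisulam replicate 3 among the 3 indisulam libraries, while ALDH8A1 and ERV3-1 were lowest in replicate 2. Without replicate 3 the indisulam ratio was 51.3-fold for ALDH8A1, 6.32-fold for ERV3-1, 1.96-fold for LHFPL2 and 1.22-fold for PGM5, whose groups still overlapped.

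**Figure D3:**
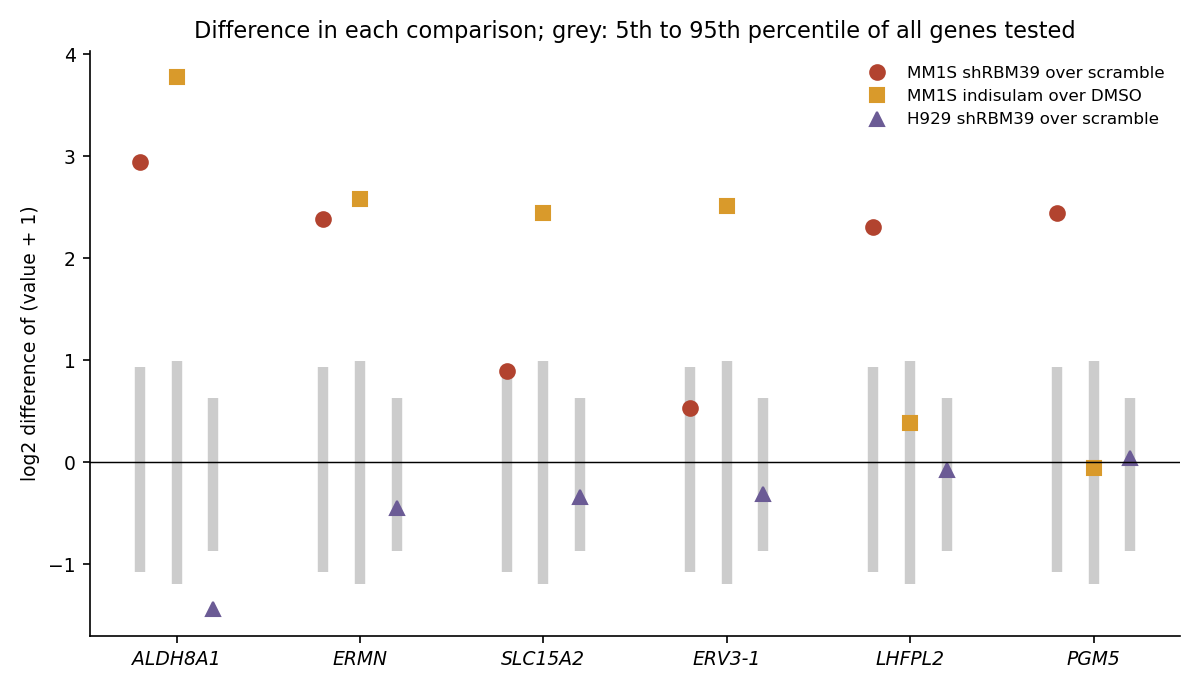
Difference in log2(value + 1) for each gene in the 3 comparisons, as circles (MM1S shRBM39 over scramble), squares (MM1S indisulam over DMSO) and triangles (H929 shRBM39 over scramble, as labelled); grey bars span the 5th to 95th percentile of all genes tested in that comparison. ALDH8A1 and ERMN lie above the grey bars in both MM1S comparisons. In H929 ALDH8A1 lies below the grey bar, and the other 3 tested genes lie inside it.

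In H929, the line that played no part in choosing the genes, ALDH8A1, ERMN, SLC15A2 and ERV3-1 were lower in the libraries labelled shRBM39, the ones with the higher RBM39 transcript. LHFPL2 and PGM5 were close to absent. ALDH8A1 was at 0.518, 0.42 and 0.437 FPKM in libraries labelled shRBM39, against 3.07, 2.76 and 3.05 FPKM in libraries labelled scramble. The groups were far apart, and ALDH8A1 fell by 1.44 on the log2(FPKM + 1) scale (SE 0.0713, limma adjusted p = 1.74e-09). It passed the filter on low values through the libraries labelled scramble only, so that p depends on the filter; with no filter the adjusted p was 6.58e-06. With a pseudocount of 0.1 the log2 difference was -2.46.

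ERMN was at 1.88, 2.31 and 1.99 FPKM in libraries labelled shRBM39, against 3.24, 2.91 and 3.35 FPKM in libraries labelled scramble, without overlap. The log2 difference was -0.45 (SE 0.0767, limma adjusted p = 1.60e-04). SLC15A2 was at 1.35, 1.46 and 1.23 FPKM in libraries labelled shRBM39, against 2.25, 1.83 and 1.87 FPKM in libraries labelled scramble. Here too the groups were separate, by a smaller margin (log2 difference -0.34, SE 0.0785, limma adjusted p = 0.0015). ERV3-1 was at 2.76, 3.22 and 3.28 FPKM in libraries labelled shRBM39, against 3.45, 4.58 and 4.2 FPKM in libraries labelled scramble, a narrow gap. Its log2 difference was -0.31 (SE 0.0888, limma adjusted p = 0.00675).

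These 4 genes were all of those that passed the H929 filter, and 4 of 4 were called lower, where 48.1% of the 10360 genes tested were called lower and 24.1% higher. Given that background and the filter, nothing is read from the count. The median log2 difference of all H929 genes was -0.13, and relative to it the genes stood at -1.31 (ALDH8A1), -0.31 (ERMN), -0.21 (SLC15A2) and -0.18 (ERV3-1). With the libraries scaled to equal medians ERV3-1 was no longer called (log2 difference -0.15, limma adjusted p = 0.16), while SLC15A2 stayed just past the threshold (-0.18, limma adjusted p = 0.0476). LHFPL2 was at 0.148, 0.179 and 0.186 FPKM in libraries labelled shRBM39, against 0.219, 0.312 and 0.178 FPKM in libraries labelled scramble, and PGM5 did not exceed 0.0667 FPKM in any H929 library. Both were below the filter, and their groups overlapped. ZNF117 was listed at 0.0343 FPKM or less in H929. Whether its reads were counted for ERV3-1 there was not tested.

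**Figure D4:**
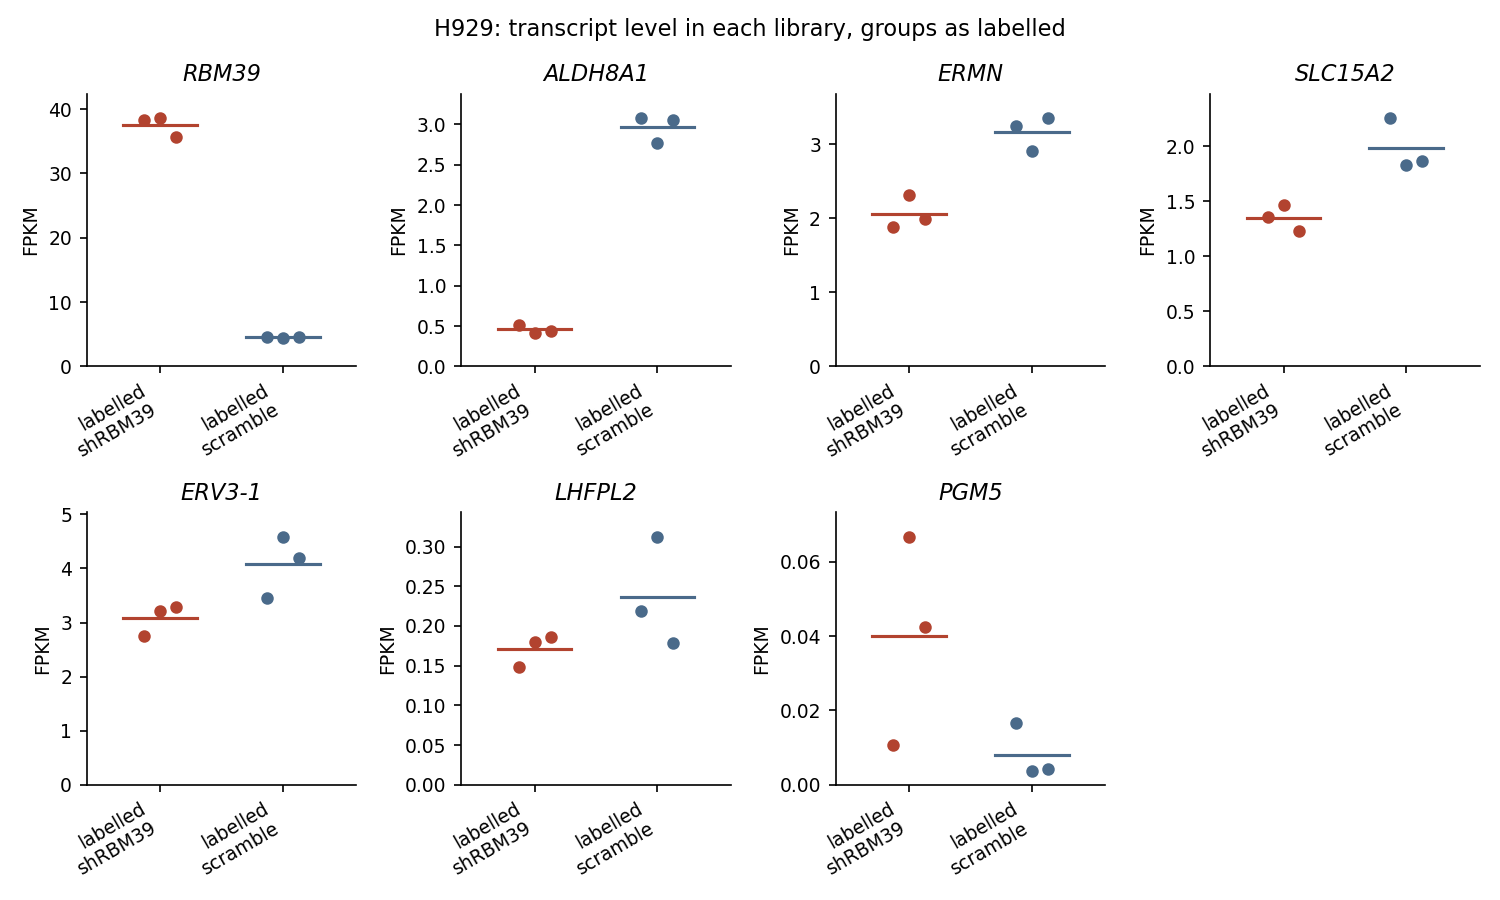
Level (FPKM, linear axis from 0) of RBM39 and the 6 genes in each H929 library, with groups as labelled; points are libraries and bars the group means. RBM39 is at 35.6 to 38.6 FPKM in libraries labelled shRBM39 and at 4.43 to 4.56 FPKM in those labelled scramble, and ALDH8A1, ERMN, SLC15A2 and ERV3-1 are lower in those labelled shRBM39.

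Set against the RBM39 transcript rather than the label, the values of the 2 hairpin experiments had 1 direction for ALDH8A1, ERMN, SLC15A2 and ERV3-1: in MM1S and in H929 each was higher in every library of the group with less RBM39 transcript. Set against the label, the 2 lines were opposite for all 4 genes. The MM1S direction was fixed by the choice of genes, and 48.1% of all genes tested in H929 were called lower as labelled. The share of all genes with the same pattern was not counted, so nothing is read from these 4. Whether the labels or columns of the H929 groups are exchanged was not tested, and RBM39 protein was not measured here. With indisulam the same 4 genes were higher while the RBM39 transcript was not called different from DMSO in the fit of all 6 libraries.

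In the RIP libraries, LHFPL2 was at 20.5 FPKM with the RBM39 antibody, against 4.18 FPKM with IgG, a log2((RBM39 + 1)/(IgG + 1)) ratio of 2.05 that was above 94.5% of the 10966 genes at 1 or more in either library. ERMN had the opposite pattern, at 0.0267 FPKM with the RBM39 antibody, against 9.21 FPKM with IgG (log2 ratio -3.31, above 1.81% of genes). The ratio was also below 0 for SLC15A2, at 0.0862 FPKM with the RBM39 antibody and 2.27 FPKM with IgG (log2 ratio -1.59), and for ERV3-1, at 1.32 and 3.42 FPKM (log2 ratio -0.93). ALDH8A1, at 0.275 FPKM with the antibody, and PGM5, at 0.0304 FPKM, were listed at 0 with IgG and were below 1 FPKM in both libraries, so no ratio is given. Over all those genes the median log2 ratio was 0.021 with quartiles of -0.95 and 0.90, and RBM39's own transcript was at 62.1 FPKM with the antibody and 127 FPKM with IgG. Among the 4 genes with a ratio, LHFPL2 was the one above 0. The sizes depend on the pseudocount: with 0.1 in place of 1 the log2 ratio was -6.20 for ERMN, -3.67 for SLC15A2, -1.31 for ERV3-1 and 2.27 for LHFPL2. With 1 library of each kind there is no replicate check.

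**Figure D5:**
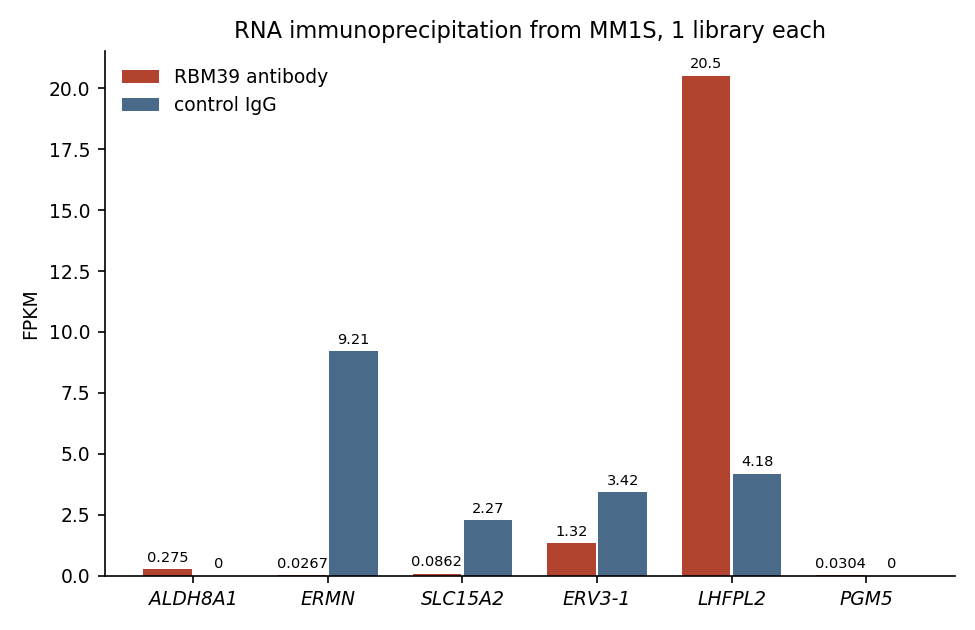
Level (FPKM, from 0) of the 6 genes in the single RIP library made with an RBM39 antibody (red) and the single library made with control IgG (blue). LHFPL2 is higher with the RBM39 antibody, while ERMN, SLC15A2 and ERV3-1 are higher with IgG.

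Relatives and pathway partners of the 6 genes were read from 11 lists of 117 genes, chosen by family, pathway or position and not gene by gene on their values. In the knockdown 4 of 76 tested genes on the lists were called higher and 6 lower, beside 3.97% and 6.35% of all genes; with indisulam 5 of 70 were called higher and 16 lower, beside 8.47% and 21.5%. In H929, as labelled, 21 of 62 were called higher and 27 lower, beside 24.1% and 48.1%. All 10 knockdown calls were lost in each fit that left out 1 MM1S library, so they are described as calls of the full set of 4 libraries. Leaving out indisulam replicate 3 raised the 21 indisulam calls to 52, and leaving out a DMSO library lowered them to between 7 and 9.

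Few other aldehyde dehydrogenases were called higher in MM1S, and in H929, as labelled, 2 of 9 were called higher and 2 lower. Of 10 tested, 1 rose in the knockdown: ALDH5A1, of GABA breakdown, averaged 13.2 ± 0.849 TPM in shRBM39 and 7.04 ± 0.438 TPM in scramble libraries (SD, n = 2 each; limma adjusted p = 0.0416). With indisulam none of the 10 rose, at an unadjusted p under 0.05 as well, and 4 fell, beside 21.5% of all genes called lower. The calls of ALDH9A1, ALDH16A1 and ALDH18A1 were lost in 5, 4 and 3 of the 6 fits without 1 library. The ALDH1B1 call held in all 6. ALDH1B1, a mitochondrial member, averaged 5.02 ± 0.651 TPM with indisulam and 10.2 ± 0.514 TPM with DMSO (SD, n = 3 each; limma adjusted p = 0.00634). Of the kynurenine pathway genes, 5 were tested in each experiment. In H929, 2 were called higher and 3 lower, among them TDO2, at 0.455 ± 0.216 FPKM in libraries labelled shRBM39 and 1.36 ± 0.286 FPKM in those labelled scramble (SD, n = 3 each; limma adjusted p = 8.42e-05). TDO2 passed the filter there through the libraries labelled scramble only, so that p depends on the filter. Limma called 0 of the 5 pathway genes in the knockdown, where 2 had an unadjusted p under 0.05, and 1 with indisulam. That gene was again TDO2, which opens the pathway; it averaged 8.69 ± 1.56 TPM with indisulam and 4.63 ± 0.749 TPM with DMSO (limma adjusted p = 0.0225), and the call was lost in 5 of 6 fits without 1 library, all but the one without indisulam replicate 3 (adjusted p up to 0.109).

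The phosphoglucomutases and junction partners of PGM5 that were called in MM1S were lower in the treated group. PGM3 fell in the knockdown, to 15.4 ± 0.495 TPM in shRBM39, against 28.4 ± 1.51 TPM in scramble libraries (SD, n = 2 each; limma adjusted p = 0.0276). With indisulam PGM3 averaged 27.2 ± 14.4 TPM, against 12.0 ± 0.647 TPM with DMSO, and was not called (limma adjusted p = 0.117). PGM1, which interconverts glucose phosphates, fell with indisulam, to 22.3 ± 2.0 TPM, against 43.4 ± 3.19 TPM with DMSO (SD, n = 3 each; limma adjusted p = 0.00167). Among junction partners, VCL (vinculin) fell in both: 3.48 ± 1.73 TPM in shRBM39 and 11.0 ± 1.26 TPM in scramble libraries (limma adjusted p = 0.0468), and 0.61 ± 0.175 TPM with indisulam and 2.0 ± 0.433 TPM with DMSO (limma adjusted p = 0.009, and 0.0618 without DMSO replicate 1). In the indisulam experiment VCL passed the filter through the DMSO libraries only, so that p depends on the filter. In H929 VCL averaged 4.68 ± 0.155 FPKM in libraries labelled shRBM39 and 13.0 ± 0.44 FPKM in those labelled scramble (limma adjusted p = 8.21e-10). Of 9 partners tested in H929, 2 were called higher, LIMS1 and ILK, and 6 lower; of 3 phosphoglucomutases PGM1 and PGM3 were called higher and PGM2 lower. Limma called 2 of 9 tested partners lower in the knockdown and 4 of 8 with indisulam, and 0 higher, also at an unadjusted p under 0.05. Of the indisulam calls, ZYX, TLN1 and VCL were lost in 5, 4 and 1 of the 6 fits without 1 library, and ILK held in all 6.

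The other LHFPL genes gave no call: 0 of 3 tested in the knockdown (0 at an unadjusted p under 0.05) and 0 of 2 with indisulam (1 at an unadjusted p under 0.05, higher). Among the other SLC15 peptide transporters, SLC15A3 fell in the knockdown, to 0.915 ± 0.233 TPM, against 3.95 ± 0.233 TPM with scramble (SD, n = 2 each; limma adjusted p = 0.0292). SLC15A3 was at 1.08 and 0.75 TPM in shRBM39 libraries, so it passed the filter through the scramble libraries and that p depends on the filter. SLC15A4, a lysosomal member, averaged 6.85 ± 0.248 FPKM in H929 libraries labelled shRBM39 and 22.8 ± 0.246 FPKM in those labelled scramble (SD, n = 3 each; limma adjusted p = 8.92e-11). Its MM1S values were not called in either direction. Other retroviral envelope genes were not called by limma in MM1S: 0 of 3 in the knockdown (2 higher at an unadjusted p under 0.05) and 0 of 2 with indisulam (1 lower). ERVK3-1 averaged 21.5 ± 4.32 TPM in shRBM39 and 21.6 ± 0.495 TPM in scramble libraries. Of the zinc finger genes around ERV3-1, 0 of 8 were called in the knockdown (1 lower at an unadjusted p under 0.05) and 1 of 7 with indisulam, ZNF117 (4 higher and 0 lower at an unadjusted p under 0.05). ZNF92 averaged 9.31 ± 3.28 TPM with indisulam and 4.53 ± 0.537 TPM with DMSO (SD, n = 3 each; limma adjusted p = 0.0548). With indisulam the median log2 difference of these zinc finger genes, ZNF117 among them, was 0.45, beside -0.051 over all genes tested. The median was -0.23 in the knockdown, beside -0.00075 over all genes tested. It was -0.31 in H929, beside -0.13. In H929, as labelled, 0 of 5 were called higher and 4 lower. Of the ezrin family, which shares a binding motif with ermin, 0 of 4 were called in the knockdown (2 lower at an unadjusted p under 0.05) and EZR alone fell with indisulam, to 37.9 ± 6.14 TPM, against 54.4 ± 3.09 TPM with DMSO (SD, n = 3 each; limma adjusted p = 0.03, lost in each of 3 fits without a DMSO library, up to 0.125). In H929, 1 of the 4 was called higher and 1, EZR, lower.

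Because endogenous retroviral RNA can form double strands, a list of sensors of such RNA and of effectors was read too. The list also holds CGAS and STING1, genes of DNA sensing, and effectors such as ISG15 and MX1. DDX58 (RIG-I) rose in both MM1S experiments: it was at 5.21 and 4.29 TPM in shRBM39 libraries, against 1.59 and 1.59 TPM in scramble libraries (limma adjusted p = 0.0374). With indisulam it was at 4.76, 4.72 and 3.14 TPM, against 1.28, 1.21 and 1.06 TPM with DMSO (limma adjusted p = 0.00335, called in each of 6 fits without 1 library). In H929 it was lower in the libraries labelled shRBM39, at 2.03 ± 0.197 FPKM, against 3.08 ± 0.27 FPKM in those labelled scramble (limma adjusted p = 2.30e-04). The list did not move as 1 block. In H929, as labelled, 8 of 15 tested sensors and effectors were called higher and 6 lower. Among the higher ones MX1, an antiviral GTPase induced by interferon, averaged 108 ± 7.88 FPKM in libraries labelled shRBM39 and 45.8 ± 2.13 FPKM in those labelled scramble (limma adjusted p = 9.11e-10). MX1 fell with indisulam, to 4.17 ± 0.866 TPM, against 14.8 ± 1.9 TPM with DMSO (limma adjusted p = 0.00123). IFIH1 rose and OAS1 fell in the knockdown (limma adjusted p = 0.047 and 0.0268). In all, 2 of 13 tested sensors and effectors were called higher and 1 lower in the knockdown, and 1 higher and 2 lower with indisulam.

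Genes next to the 6 on the chromosome were compared as well, taking the 2 nearest protein-coding genes on each side. In H929, 4 of 12 tested neighbours were called higher and 4 lower. In the knockdown 1 of 17 was called higher and 1 lower. ILDR1, beside SLC15A2, was at 12.6 and 13.5 TPM in shRBM39 libraries, against 6.41 and 5.85 TPM in scramble libraries (limma adjusted p = 0.0292). SGK1, a kinase gene beside ALDH8A1, was at 37.7 and 66.9 TPM in shRBM39 libraries, against 259 and 172 TPM in scramble libraries (limma adjusted p = 0.0274). With indisulam 2 of 16 neighbours were called higher and 3 lower. MYB, on the other side of ALDH8A1, was at 2.48, 2.83 and 1.56 TPM with indisulam, against 10.6, 9.04 and 11.8 TPM with DMSO (limma adjusted p = 0.00118). CYTIP, beside ERMN, was at 116, 98.0 and 79.5 TPM with indisulam, against 71.5, 68.2 and 66.3 TPM with DMSO (limma adjusted p = 0.0392). DMGDH, beside LHFPL2, was at 4.98, 2.42 and 1.79 TPM with indisulam, against 0.73, 0.1 and 0.25 TPM with DMSO, although LHFPL2 itself stayed near 1 TPM there (limma adjusted p = 0.0115). DMGDH passed the filter through the indisulam libraries only, so that p depends on the filter. EAF2 and CD86, both beside SLC15A2, fell with indisulam (limma adjusted p = 0.00792 and 0.0377). Of these neighbours, those tested in the other MM1S experiment were not called there; DMGDH was listed at 0 in the 4 hairpin libraries and was not tested. The indisulam calls were lost without DMSO replicate 2 or 3 for DMGDH, without DMSO replicate 2 for EAF2, and in every fit without 1 library except that without indisulam replicate 3 for CYTIP and CD86 (adjusted p up to 0.156); the MYB call held in all 6.

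Profiles over the 10 MM1S libraries, each set relative to its own control group, were compared between genes by Pearson correlation as a description. The points share libraries and group differences, and groups that separate give high values. Nearest to ALDH8A1 were SLC2A11 (r = 0.983), SNHG29 (r = 0.978) and LINC02641 (r = 0.978), and nearest to ERMN were PSAP (r = 0.992), LINC02641 (r = 0.988) and CPNE1 (r = 0.986). LINC02641, a long noncoding RNA, averaged 3.1 and 0.215 TPM in shRBM39 and scramble libraries and 3.66 and 0.367 TPM with indisulam and DMSO. Nearest to SLC15A2 were WWC3, GABPB1-AS1 and TIPARP (r = 0.993, 0.99 and 0.99), and nearest to ERV3-1 were NACA, ZNF277 and RPL15 (r = 0.966, 0.964 and 0.964). LHFPL2 was nearest to SF3B1 (r = 0.982), a core splicing factor gene, at 198 and 93.0 TPM in shRBM39 and scramble libraries and 138 and 126 TPM with indisulam and DMSO, followed by RNF135 and PBXIP1 (r = 0.977 and 0.976). PGM5 was nearest to CIRBP (r = 0.976), a cold-inducible RNA-binding protein gene, at 409 and 202 TPM in shRBM39 and scramble libraries and 415 and 404 TPM with indisulam and DMSO, followed by TMEM59 and CD82 (r = 0.971 and 0.965).

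Markers of the tissues where these genes are best known were low in the treated MM1S libraries. The summed level of 5 oligodendrocyte genes was 2.75 to 3.6 TPM in shRBM39 and 4.57 to 4.88 TPM in scramble libraries, and 2.11 to 3.62 TPM with indisulam and 3.02 to 3.18 TPM with DMSO; MBP was the only one at 1 or more in every library of a group. The 4 hepatocyte genes summed to 0.53 to 0.86 TPM in shRBM39 and 3.55 to 15.8 TPM in scramble libraries, and to 0.07 to 0.41 TPM with indisulam and 0.24 to 0.43 TPM with DMSO, with TTR listed at 0 throughout MM1S. The 3 kidney tubule genes summed to at most 0.4 TPM in shRBM39 and 1.5 TPM in scramble libraries, and to at most 0.02 TPM with indisulam and 0.63 TPM with DMSO. The 4 muscle genes summed to at most 1.57 TPM in every MM1S library. None of these MM1S sums was higher in the treated group without overlap. In H929 the 2 oligodendrocyte genes listed summed to 3.9 to 4.17 FPKM in libraries labelled shRBM39 and 1.56 to 1.82 FPKM in those labelled scramble. There the kidney tubule and muscle sums were lower in libraries labelled shRBM39, and the hepatocyte sums overlapped. Summed markers of other blood cells were lower in treated MM1S libraries and in H929 libraries labelled shRBM39. The 3 T cell genes summed to 0.93 to 1.65 TPM in shRBM39 and 4.66 to 5.73 TPM in scramble libraries. They summed to 0.97 to 1.51 TPM with indisulam and 3.1 to 4.29 TPM with DMSO. In H929 the sums were 15.7 to 18.5 FPKM in libraries labelled shRBM39 and 39.3 to 47.1 FPKM in those labelled scramble. CD3D was listed at 0 throughout MM1S. The 4 myeloid genes summed to 5.7 to 9.79 TPM in shRBM39 and 15.9 to 21.1 TPM in scramble libraries, to 7.22 to 8.3 TPM with indisulam and 9.5 to 10.6 TPM with DMSO, and in H929 to 13.4 to 14.7 FPKM in libraries labelled shRBM39 and 25.1 to 26.9 FPKM in those labelled scramble. In each group at most 1 T cell gene and 1 myeloid gene were at 1 or more in every library, so these sums may rest on single genes. LYZ went the other way in H929: it was at 0 in all libraries labelled scramble but not in all of those labelled shRBM39. The part of these markers in the results was not tested. In bulk RNA, fewer cells with a transcript and less transcript per cell cannot be told apart.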

How the data were processed

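The 16 RNA sequencing and 2 RIP libraries were used as deposited. Per the labels, TRIzol was used for the RNA and a SMARTER mRNA-Seq kit for the libraries; aligner, counter and annotation: not given in the sources used here. Mouse builds (GRCm38, mm10) stand in the submitters' processing notes although the cells are human, so no position was read from the files. FPKM values in the H929 and RIP tables were made by the authors. The authors' MM1S tables carry FPKM in their names, yet each deposited column sums to 999999 to 1000001, so the values were taken as TPM; the design had assumed FPKM, and the test was kept. Rows with no gene name (834 and 473) held 0.436% to 0.459% and 0.174% to 0.237% of TPM and were left out; 0 columns were unmatched. Low H929 values lie on steps of whole reads, which put its libraries at 0.85 to 1 of the depth of the deepest; absolute depth is unknown and no counting interval is given.

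Each table was fitted alone with limma 3.58.1 in R 4.3.3 (trend, robust, two-sided) on log2(value + 1), which understates changes of low genes. A gene was tested if at least n libraries reached a value of 1, with n the size of the smaller group; p-values were adjusted by Benjamini-Hochberg over all genes tested, and the threshold was 0.05. The script was tested on simulated data. The members and lists were chosen with earlier results of these data known. Named genes are the 6 members, RBM39 and the 3 genes most alike in profile. Up to 3 called genes per list and comparison, those with the smallest adjusted p, were named too. ERVK3-1, ERVW-1, ERVK13-1, ZNF92, other values of named genes and some H929 calls were added after they were seen. One marker gene of the design is not reported here. Symbols, neighbours and promoters come from RefSeq tables. Alternatives changed the pseudocount (0.1), the filter (none, or 5), the scaling (median, quantile), the trend and robust options and the replicate block, or left out each library.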

Additional observations from a re-analysis of the deposited data

Results flagged for a closer look

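The 2 cell lines were opposite, as labelled, for 4 of the 6 genes and for RBM39: in each case every shRBM39 library lay on one side of every scramble library in MM1S and on the other side in H929. The log2 differences were 2.94 in MM1S and -1.44 in H929 for ALDH8A1, 2.39 and -0.45 for ERMN, 0.89 and -0.34 for SLC15A2, and 0.53 and -0.31 for ERV3-1. RBM39 itself stood at -1.69 in MM1S and 2.81 in H929. The difference between the lines was not tested, since their tables were normalized separately and hold different units. The share of all genes with such opposite groups was not counted. In H929, 48.1% of the 10360 genes tested were called lower as labelled, so nothing is read from the count of 4.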

How the results depend on the processing

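Genes wholly above their controls numbered 6 in each alternative for the knockdown, and 4 or 5 with indisulam, which the choice of genes sets and which shows no stability. In H929, 4 members were called lower in the main fit, 3 with median or quantile scaling and 0 with a filter at 5, which none of them reaches. Listed genes called in H929 were 48, and 31 with that filter. In the MM1S knockdown, 1461 genes were called, 0 without a filter (4966 at an unadjusted p under 0.05), 255 with the replicate number as a block, and 0 to 465 without 1 library; listed genes called were 10, 0 without a filter, 1 with the block and 0 in each fit without 1 library. With indisulam, 4024 genes were called and 1849 to 9350 without 1 library; listed genes called were 21, 38 with median scaling, 35 with quantile scaling, 13 without a filter, 13 with the block and 7 to 52 without 1 library. The share of indisulam calls that were higher was 28.3%, and 46.7% with median scaling, 52.1% with quantile scaling and 57.7% without indisulam replicate 3; in H929 it was 33.4%, 54.3% and 49.6% under the main, median and quantile fits. The RBM39 difference with indisulam was -0.056 without indisulam replicate 1 and -0.027 without replicate 2, and became a call at 0.40 with quantile scaling (limma adjusted p = 0.0387) and at 0.24 without replicate 3 (limma adjusted p = 0.00899). With a pseudocount of 0.1 the ALDH8A1 differences were 4.14 with shRBM39 and 5.64 with indisulam in MM1S, and -2.46 in H929. The causes were not tested.

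The labels do not say that the replicate number pairs libraries, so the main fits did not pair them. Deviations of same-numbered libraries from their group means had correlations of 0.129, 0 and 0.025 in H929. These were -0.142 in the knockdown, and 0.137, -0.148 and -0.025 with indisulam. In H929 3 of 6 libraries, and in the indisulam experiment 2 of 6, correlated best with their own number. With 2 or 3 libraries per group the deviations depend on each other, so these values cannot decide whether the numbers are pairs. The replicate block left the H929 members at 4 calls.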
